A study of Mus musculus with 7 samples.

Results

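The mitotic cell cycle genes are 34 named genes of the G2 and M phases. Their probe sets were those annotated to 1 member symbol alone, and each gene was represented by its brightest probe set over the arrays. Of the 34 genes, 33 were found, out of 18193 genes with such a probe set in all, and Ccnb1, the cyclin B1 gene, was not analysed here. All 33 passed the filter on dim genes, a mean signal of at least 57.7, as did 12497 of the 18193 genes.

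Mammary glands came from virgin female FVB mice with the PyV-MT transgene, which makes the middle T oncoprotein of polyoma virus and drives mammary tumours, and were taken at 8 weeks of age. Every gland analysed carried the transgene, whose promoter was not given in the sources used here, and wild type mice were not analysed here. From 4 weeks of age the control mice ate AIN93G chow (3 arrays of 5 mice placed on it) and the others ate chow with 1% conjugated linoleic acid, CLA, a set of linoleic acid isomers with conjugated double bonds (4 arrays of 6 mice). The values are MAS5 signals, a linear measure of probe set brightness, with a trimmed mean of 500.003 on every array. The labels give separate samples but do not say more on how they were taken, so p-values measure the spread between these arrays. The luminal keratin genes Krt8 and Krt18 had signals from 15379 to 20972 on the 7 arrays. For Actb, the 3′ probe set gave 2.78 times the signal of the 5′ probe set on CLA replicate 3 and 1.41 to 1.88 times on the other arrays, a ratio that goes up as RNA degrades.

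Entry into mitosis is driven by the kinase Cdk1 with cyclin A and B partners, and the polo and aurora kinases then build the spindle. The spindle checkpoint holds cells before anaphase until every kinetochore is attached, after which Cdc20 turns on the anaphase-promoting complex and cyclin B is destroyed. Transcripts of these genes accumulate in G2 and M and are low in resting cells, and they are widely read as a sign of dividing cells. In bulk tissue, fewer dividing cells and less mitotic RNA per cell cannot be told apart.

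Signals of the mitotic genes were somewhat higher in CLA glands, but no gene passed the test. The log2 change, CLA minus control, was positive for 33 of 33 members, against 55.3% of all genes tested. Its median was 0.45 (1.36-fold), with a range from 0.28 (Ect2) to 0.74 (Bub1), where the median over all genes tested was 0.03. Limma called 0 of 33 members at an adjusted p under 0.05, with adjusted p-values from 0.873 to 0.985, and it called 0% of all genes higher. At an unadjusted p under 0.05 limma gave 2 members, Bub1 and Birc5, both higher in CLA glands, where 2.38% of all genes were. At that p 298 genes were higher and 376 lower, and with each array centred on its median 622 and 268, of which 8 of the higher were members. The groups overlapped for every member, while for 2.64% of all genes each CLA array lay above each control array.

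Control replicate 1 lay apart from the other controls. It was above both for 33 of 33 members and was the highest of all 7 arrays for 21. Control replicate 2 was the lowest of all arrays for 29 members and control replicate 3 for the other 4, namely Ttk, Nuf2, Kif11 and Kif23. Both of these control arrays lay below every CLA array for 31 members, as they did for 12.3% of all genes, the exceptions being Ccnb2 and Racgap1. Among the CLA arrays, replicate 3 was the lowest for 25 members.

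**Figure D1:**
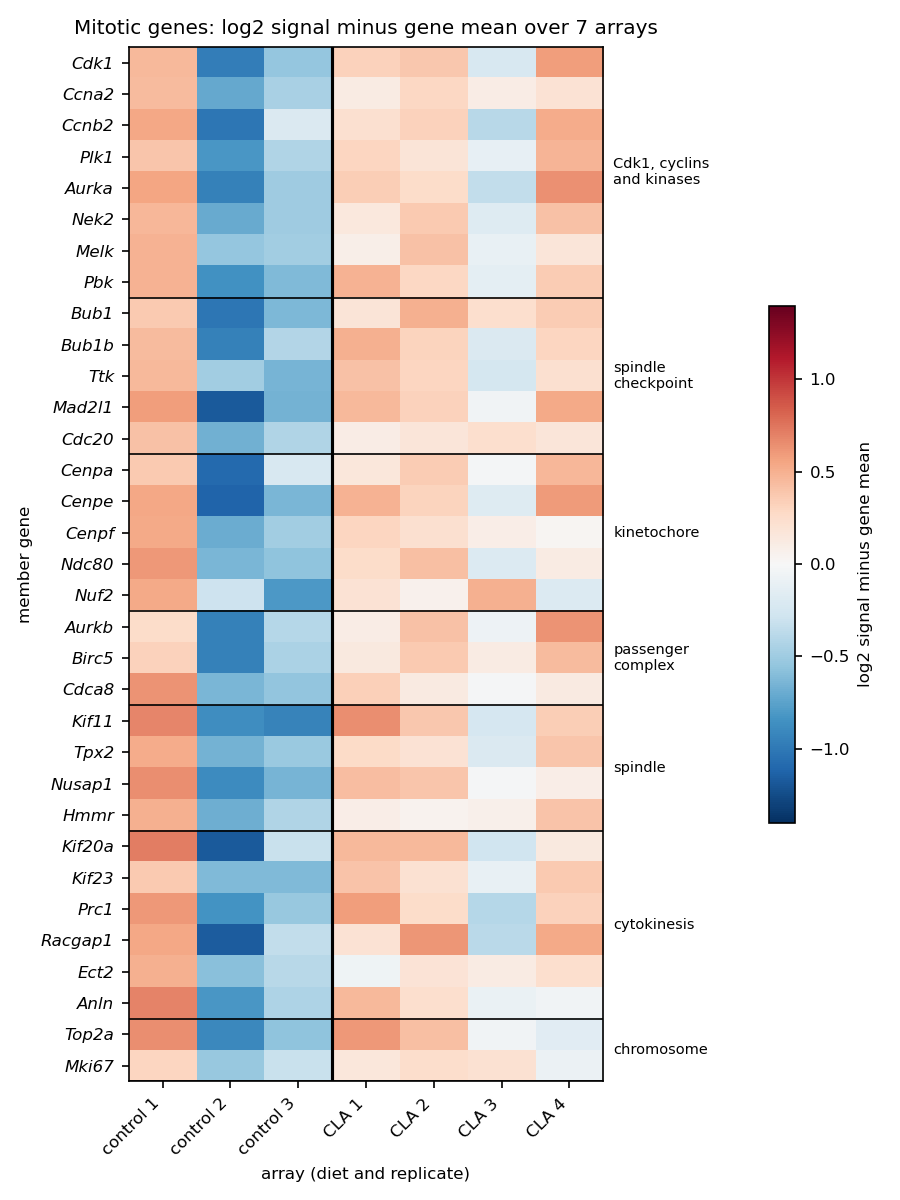
Log2 signal of each of the 33 mitotic genes (rows, by role) on each of the 7 arrays (columns, by diet and replicate), shown as the difference from the gene's mean over the 7 arrays. Control replicates 2 and 3 are below the mean for all 33 genes and control replicate 1 is above it for all 33.

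The members moved as a block. Over the 528 pairs of members, the median Pearson r across the 7 arrays was 0.91, with a mean of 0.89, and the mean over all pairs of genes tested was 0.0064. The pair least alike was Ccnb2 and Nuf2 (r = 0.32) and the pair most alike Plk1 and Cenpe (r = 1.00, rounded from just below). These r values are descriptions over 7 arrays of both diets that differ widely in muscle RNA, as given with Acta1.

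Many promoters of mitotic genes carry a cell cycle homology region (CHR), bound by the DREAM and MuvB complexes, together with CCAAT boxes, bound by NF-Y. Both motifs were therefore looked for in RefSeq promoter windows, from 250 bases before to 50 bases after the start site (GRCm38.p6), on both strands, as TTTGAA for the CHR and CCAAT for the CCAAT box. Windows were found for 28 of the 33 measured members. A CHR was present in 20 of them (71.4%), against 20.2% of 27025 genes with a window, and within 40 bases of the start site in 19 (67.9% against 4.88%). At least 1 CCAAT box was present in 21 (75%, against 41.1%), and boxes whose first bases lay 26 to 38 bases apart in 9 (32.1%, against 3.19%). No source for these distance limits is given here, and members lay exactly on them. Bub1 had boxes 26 bases apart, Top2a 38, and Bub1b a CHR at 40. The shares within the limits are therefore descriptions only. The only overlap of motif matches was 1 base in Cdca8. The median log2 change was 0.42 for the 20 members with a CHR and 0.57 for the 8 without, and the ranges, 0.28 to 0.66 and 0.32 to 0.74, overlapped.

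The 120 bases before the start site are shown for 6 members, 5′ to 3′ on the gene's strand, to let the spacing of the motifs be seen. Capitals mark CHR (TTTGAA, or TTCAAA on the other strand) and CCAAT (or ATTGG) matches.
Cdk1, chr10:69352913-69353032, minus strand: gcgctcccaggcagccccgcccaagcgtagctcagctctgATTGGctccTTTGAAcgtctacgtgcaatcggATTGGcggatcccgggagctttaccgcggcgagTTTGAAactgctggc
Ccnb2, chr9:70421555-70421674, minus strand: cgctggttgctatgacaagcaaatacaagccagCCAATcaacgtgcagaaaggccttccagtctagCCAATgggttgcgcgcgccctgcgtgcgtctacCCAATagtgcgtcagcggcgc
Plk1, chr7:122159315-122159434, plus strand: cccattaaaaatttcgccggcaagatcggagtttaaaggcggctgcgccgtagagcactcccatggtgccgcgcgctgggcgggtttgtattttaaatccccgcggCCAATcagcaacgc
Bub1, chr2:127831860-127831979, minus strand: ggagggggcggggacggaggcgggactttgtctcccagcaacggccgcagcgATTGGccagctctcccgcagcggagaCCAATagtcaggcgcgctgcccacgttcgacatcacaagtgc
Cdc20, chr4:118437344-118437463, minus strand: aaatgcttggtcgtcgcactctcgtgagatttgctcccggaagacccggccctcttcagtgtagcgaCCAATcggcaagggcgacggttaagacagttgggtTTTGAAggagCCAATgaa
Kif11, chr19:37376262-37376381, plus strand: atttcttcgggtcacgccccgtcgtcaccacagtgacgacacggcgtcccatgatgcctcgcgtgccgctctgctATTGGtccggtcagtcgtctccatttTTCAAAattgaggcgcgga
Cdk1 had CHR matches starting at 71 and 15 bases before its start site, and Cdc20 at 18. In Ccnb2 and Plk1 the CHR nearest the start lay 4 and 30 bases after it, outside the printed stretch. Bub1 had CCAAT boxes but no TTTGAA in its window. A match describes letters in the window and not a bound site.

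**Figure D2:**
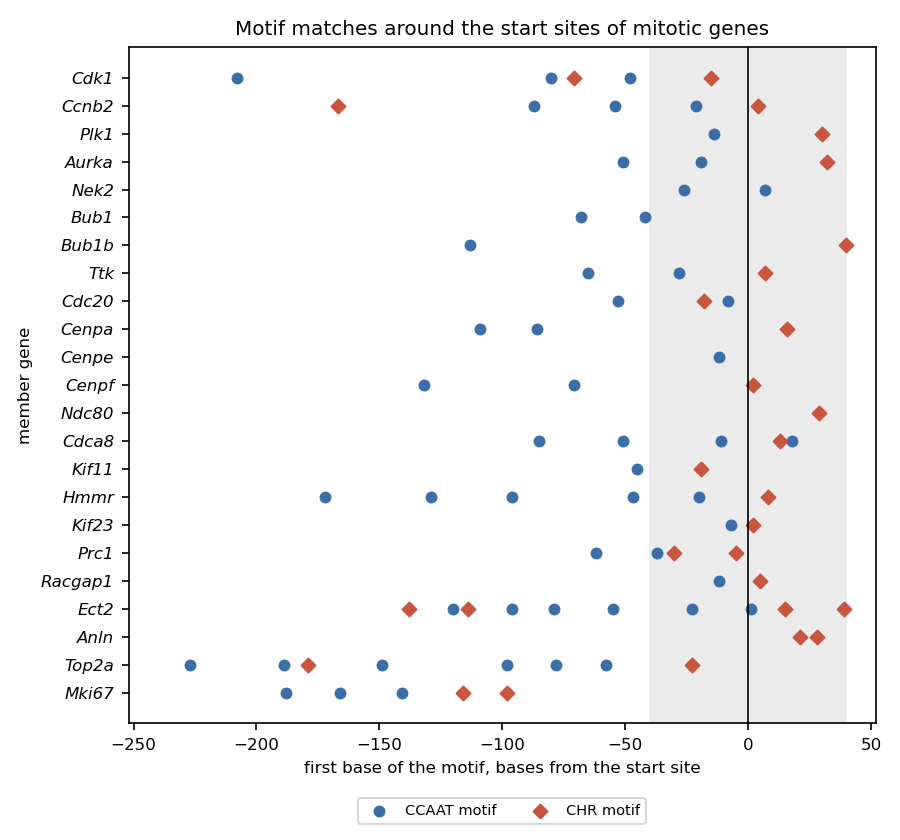
First base of each CHR (TTTGAA) and CCAAT match, in bases from the RefSeq start site (x axis, negative before the start), for the members with at least 1 match (rows). The grey band marks 40 bases on either side of the start, where 19 of 28 members had a CHR; Ect2 and Prc1 have several annotated starts, so their motifs are drawn for each.

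Among the other mitotic genes with a window, 30 of 49 held a CHR (61.2%), against 3 of 15 genes of the anaphase-promoting complex (20%) and 2 of 15 genes of replication licensing (13.3%). The CCAAT box was as frequent in some other lists as in the members, in 73.3% of replication licensing genes and 67.3% of other mitosis genes.

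The kinases and cyclins that start mitosis all had higher mean signal in CLA glands. The 8 genes measured had log2 changes from 0.32 to 0.62, median 0.46, and 0 of 8 passed. Cdk1, the kinase at the centre of mitotic entry, had signals of 3790, 1407 and 1894 on the control arrays and 3458, 3585, 2353 and 4126 on the CLA arrays, each in order of replicate, as in all values that follow. Control replicates 2 and 3 were lowest and control replicate 1 lay among the CLA arrays. The log2 change of Cdk1 was 0.62 ± 0.32 (SE), limma's adjusted p 0.906. Ccna2, the cyclin A gene that acts in S phase and early mitosis, was at 3215, 1441 and 1728 in control and 2564, 2879, 2543 and 2724 in CLA glands (0.42 ± 0.24 SE). Its 4 CLA values lay close together and within the control range.

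Ccnb2, a cyclin B gene, was at 2980, 1017 and 1783 in control and 2406, 2579, 1567 and 2945 in CLA glands. It was 1 of the 2 members for which control replicate 3 was above a CLA array. Plk1, the polo kinase of spindle assembly and mitotic exit, was at 1436, 623 and 816 in control and 1348, 1240, 1011 and 1526 in CLA glands (log2 change 0.49 ± 0.27 SE). Aurka, the aurora kinase of the spindle poles, was at 1581, 561 and 763 in control and 1372, 1289, 847 and 1676 in CLA glands (0.52 ± 0.35 SE). In both genes the highest array was CLA replicate 4 and control replicate 1 came next. The centrosomal kinase gene Nek2 had a log2 change of 0.43, the kinase gene Melk 0.32 and the mitotic kinase gene Pbk 0.58.

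The spindle checkpoint genes include Bub1, the member with the largest log2 change when a gene's brightest probe set is used. Of 5 genes 0 passed, and the log2 changes ran from 0.40 to 0.74, median 0.54. Bub1, a kinetochore kinase of the checkpoint, was at 952, 365 and 477 in control and 838, 1043, 871 and 941 in CLA glands. The 4 CLA arrays were within 838 to 1043, and only control replicate 1 reached that range. The log2 change of Bub1 was 0.74 ± 0.29 (SE), 95% interval 0.10 to 1.39, with an unadjusted limma p of 0.0286 and an adjusted p of 0.873. With the mean of both its probe sets, of which the other had a mean signal of 38.4, the change was 0.31. Mad2l1, whose product inhibits Cdc20, was at 2311, 682 and 974 in control and 2120, 1925, 1490 and 2231 in CLA glands (0.73 ± 0.36 SE). Control replicate 1 was the highest array and the other controls the lowest.

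Bub1b, which encodes the checkpoint protein BubR1, was at 1650, 628 and 914 in control and 1719, 1509, 1055 and 1501 in CLA glands (0.54 ± 0.30 SE). Cdc20, the activator of the anaphase-promoting complex, was at 7448, 3518 and 4176 in control and 5990, 6313, 6565 and 6310 in CLA glands (0.40 ± 0.22 SE). With this probe set CLA replicate 3 was the highest CLA array, but with the gene's next brightest, at 3843, 3684, 2260 and 3192 in CLA glands, it was the lowest. Ttk, the Mps1 kinase gene that starts checkpoint signalling, had a log2 change of 0.40 ± 0.29 (SE).

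Kinetochore genes differed in how the CLA arrays ranked. The 5 genes had log2 changes from 0.33 to 0.71, median 0.38, and 0 of 5 passed. Cenpe, a kinetochore motor that aligns chromosomes, was at 691, 220 and 305 in control and 668, 591, 422 and 723 in CLA glands (0.71 ± 0.36 SE). Cenpa, the histone H3 variant that marks the centromere, was at 1902, 693 and 1263 in control and 1640, 1879, 1441 and 2040 in CLA glands (0.55 ± 0.30 SE). Both were lowest on control replicate 2 and highest on CLA replicate 4. Nuf2, a subunit of the Ndc80 complex that holds microtubules, was at 402, 228 and 159 in control and 321, 290, 391 and 244 in CLA glands. Its CLA arrays were ordered unlike those of Cenpe and Cenpa, with CLA replicate 3 the highest of the CLA arrays and replicate 4 the lowest. The log2 changes of Nuf2 and its partner Ndc80 were 0.33 ± 0.31 and 0.35 ± 0.32 (SE), and that of Cenpf, a large protein of the outer kinetochore, was 0.38 ± 0.27.

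The chromosomal passenger complex corrects wrong attachments and then moves to the midzone. Its 3 genes had log2 changes from 0.33 to 0.63, median 0.62, and 0 of 3 passed. Birc5, which encodes survivin, was at 2448, 1012 and 1436 in control and 2152, 2514, 2106 and 2656 in CLA glands. Its log2 change was 0.62 ± 0.26 (SE), 95% interval 0.03 to 1.21, with an unadjusted limma p of 0.0407 and an adjusted p of 0.889. Aurkb, the kinase of the complex, was at 762, 332 and 484 in control and 686, 847, 608 and 983 in CLA glands (0.63 ± 0.28 SE). In both genes control replicate 1 lay within the CLA range and the other controls below it. Cdca8, the borealin gene, had a smaller log2 change, 0.33 ± 0.28.

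Spindle genes had log2 changes from 0.35 to 0.66, median 0.45, with 0 of 4 passed. Kif11, the motor that pushes spindle poles apart, was at 789, 269 and 257 in control and 771, 640, 418 and 626 in CLA glands (0.66 ± 0.39 SE). It was nearly equal on control replicate 1 and CLA replicate 1, and lowest on control replicate 3. Nusap1, a microtubule bundling protein, had a log2 change of 0.52 ± 0.33, Tpx2, the activator of Aurka, 0.38 ± 0.28 and the hyaluronan receptor and spindle gene Hmmr 0.35 ± 0.26 (SE).

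Cytokinesis genes include Ect2, the member with the smallest log2 change by brightest probe set. The 6 genes had log2 changes from 0.28 to 0.57, median 0.45, and 0 of 6 passed. Kif20a, a motor of the midzone, was at 820, 220 and 401 in control and 680, 682, 410 and 545 in CLA glands. This was the widest spread of any member, 3.72-fold from the lowest to the highest array, and control replicate 3 was nearly level with CLA replicate 3. Racgap1, a subunit of the centralspindlin complex, was at 1498, 458 and 810 in control and 1185, 1575, 792 and 1487 in CLA glands (0.57 ± 0.38 SE). Its partner Kif23 had a log2 change of 0.51 ± 0.27 and the midzone crosslinker Prc1 0.45 ± 0.34. Ect2, the activator of RhoA at the cleavage furrow, and Anln, the anillin of the contractile ring, had the changes 0.28 ± 0.25 and 0.32 ± 0.32.

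Both chromosomal genes are common proliferation markers, and 0 of 2 passed. Mki67, which encodes Ki-67, the coat protein of mitotic chromosomes, was at 4532, 2549 and 2951 in control and 4091, 4335, 4250 and 3475 in CLA glands. Its spread of 1.78-fold from the lowest to the highest array was the smallest of any member, and its log2 change was 0.31 ± 0.19 (SE). Top2a, the topoisomerase that untangles sister chromatids, was at 4706, 1604 and 2040 in control and 4597, 4030, 2907 and 2690 in CLA glands (0.48 ± 0.34 SE). CLA replicate 4, among the highest arrays for Cdk1, Plk1 and Aurka, was the lowest CLA array for Top2a and Mki67.

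**Figure D3:**
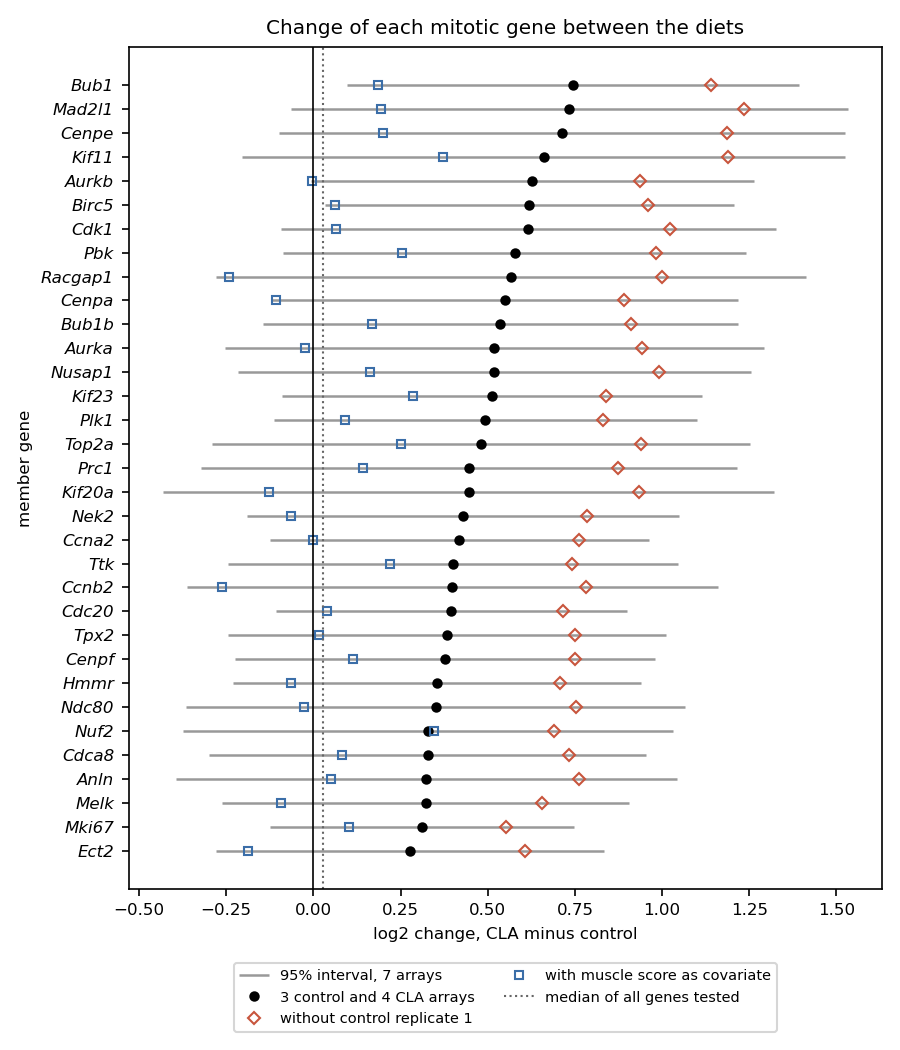
Log2 change, CLA minus control (x axis), of each mitotic gene (rows), with its 95% interval from limma on all 7 arrays, beside the change without control replicate 1 and the change with muscle score as covariate. The interval lies above 0 for 2 genes, Bub1 and Birc5, and 12 of the 33 squares lie left of 0. Every diamond lies right of its black point by construction, as control replicate 1 was above both other controls for all 33 members.

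The title numbers of the samples start with 27 on control replicate 1 and CLA replicate 1 and with 28 on the other 5 arrays, and what they stand for was not given in the sources used here. Within 27, with 1 array per diet, the sign was turned: CLA replicate 1 was below control replicate 1 for 30 of 33 members, with a median difference of -0.21 (log2). Within 28 the median change was 0.80, and 31 of 33 members had an unadjusted limma p under 0.05, against 5.61% of all genes higher, while 0 passed after adjustment, against 0.00796% of all genes higher. With the number as a block the median was 0.52. There 13 members were higher at an unadjusted limma p under 0.05, against 3.84% of all genes higher. Without control replicate 1 the median was 0.84 and 33 of 33 members were higher at such a p, against 6.36% of all genes higher. Their adjusted limma p-values ran from 0.127 to 0.386 and 0 were called, against 0.016% of all genes higher. The largest changes were then Mad2l1 at 1.24, Kif11 and Cenpe at 1.19 and Bub1 at 1.14. Control replicate 1 was above both other controls for every member, so leaving it out could only raise their changes. The median SE also went from 0.30 to 0.21. As the members moved as a block, their 33 p-values are not separate observations. Without control replicate 2 the median was 0.18 and 0 members had an unadjusted limma p under 0.05, against 1.27% of all genes higher.

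A score per array condenses this pattern: each member's log2 signal was centred on its own mean, and the 33 centred values were averaged. The score was 0.50, -0.82 and -0.50 in control glands and 0.30, 0.30, -0.08 and 0.29 in CLA glands. The control mean was -0.27 ± 0.69 (SD, n = 3) and the CLA mean 0.20 ± 0.19 (SD, n = 4). The difference of 0.48 was thus smaller than the spread of the controls.

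Acta1, the skeletal muscle actin gene, served as a measure of muscle taken with the gland. Its signal was 2729, 19588 and 4834 in control glands and 4207, 31.8, 509 and 56.8 in CLA glands. The array with the most Acta1, control replicate 2, had the lowest mitotic score. Among the 5 arrays of title number 28 the order was strictly inverse, with Pearson's r -0.995 between score and log2 Acta1. It ran from control replicate 2 through control replicate 3 and CLA replicate 3 to CLA replicates 4 and 2. On these 5 arrays Acta1 also separated the diets. Over all 7 arrays Pearson's r between score and log2 Acta1 was -0.58 and Spearman's rho -0.61. Without CLA replicates 2 and 4, the arrays farthest from the median Acta1, r was -0.52 and rho -0.70 (5 arrays). It was -0.32 without control replicate 2 and -0.75 without control replicate 1, so its size rests on single arrays. The slope was -0.08 score units per doubling of Acta1, -0.036 without control replicate 2 and -0.15 without CLA replicates 2 and 4. On CLA replicates 2 and 4 the Acta1 signals, 31.8 and 56.8, were below the 57.7 used as the filter on dim genes. Control replicates 1 and 3 and CLA replicate 1 had Acta1 between 2729 and 4834, and their scores were 0.50, -0.50 and 0.30. Of these arrays, control replicate 3 has a title number starting with 28 and the others with 27. The part of Acta1 and of the title number in the score was not tested.

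**Figure D4:**
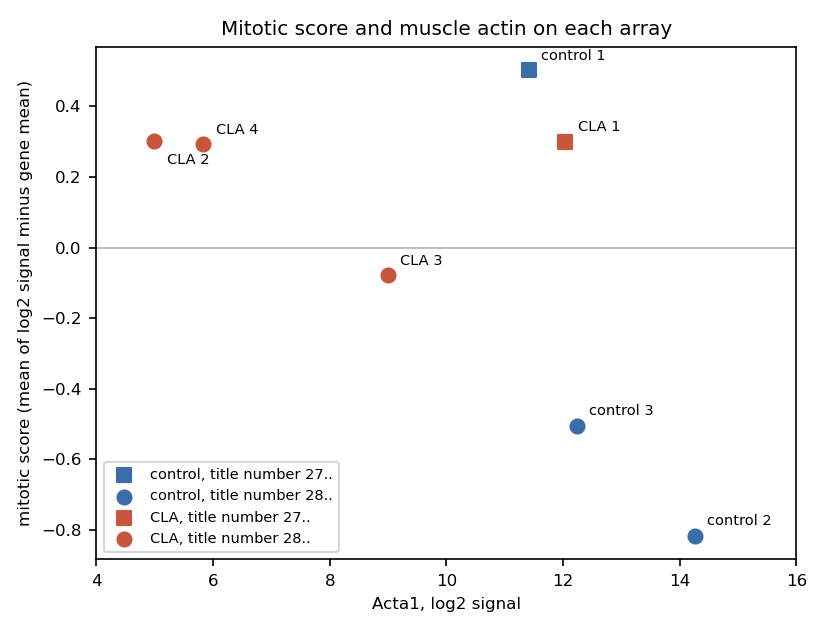
Mitotic score (y axis, mean over 33 genes of log2 signal minus gene mean) against log2 signal of Acta1 (x axis) on each array, coloured by diet and shaped by the leading digits of the title number. The circles run from upper left to lower right, while both squares sit high, at scores of 0.50 and 0.30, for Acta1 signals of 2729 and 4207.

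Singly, all 33 members had a negative r with log2 Acta1, as did 55.5% of all genes tested. The member median was -0.56 and the median of all genes -0.07. Aurkb (-0.80), Birc5 (-0.76) and Bub1 (-0.74) followed Acta1 most closely and Nuf2 (-0.19) least. With log2 Acta1 as a covariate in the limma fit, the median diet change of the members was 0.21, with 29 of 33 positive, and the median SE went from 0.30 to 0.43. With the score of 21 muscle markers as the covariate it was 0.07, with 21 of 33 positive. In both fits 0 members had an unadjusted p under 0.05, against 0.896% and 0.944% of all genes higher. The diet change in these fits was largest for Kif11, at 0.48 and 0.37, and lowest for Ccnb2, at -0.10 and -0.26. Diet itself, coded 1 for CLA and 0 for control, had r = -0.72 with log2 Acta1, so these fits separate diet and muscle poorly. Nuf2, at 0.33 without a covariate, was at 0.43 and 0.35. Acta1 was below every control array on 3 of the 4 CLA arrays, and its part in the diet values was not tested.

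Markers of other cell types were set beside the score, and 0 genes of these lists passed. At an unadjusted limma p under 0.05, 19 of 20 muscle markers and 13 of 14 adipocyte markers tested were lower in CLA glands, against 3.01% of all genes. At that p 4 of 12 basal markers were higher, against 2.38% of all genes, among them the basal keratin genes Krt5 (log2 change 1.24 ± 0.31 SE) and Krt14. Of the 12 basal markers 8 had a positive log2 change, and the brightest, Acta2, was at -0.036 ± 0.31 (SE). The summed signal of the 21 muscle markers ran from 14767 to 130447 in control and from 2274 to 21496 in CLA glands. The 19 luminal markers measured, of 20 listed, summed to 110413 to 137340 in control and 116348 to 127689 in CLA glands. Their score stayed between -0.13 and 0.16, while the mitotic score ranged from -0.82 to 0.50. On control replicate 2 the luminal score was -0.13, on the array where the mitotic score was lowest. With the luminal score as a covariate the median mitotic change was 0.45, as without it. The luminal score differed by only 0.013 between the diets, so this covariate could hardly move the diet change, and nothing is concluded from it. Mitotic score minus luminal score was 0.55, -0.68 and -0.66 in control and 0.39, 0.23, -0.07 and 0.25 in CLA glands.

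The score of the 12 basal epithelial markers went with the mitotic score in part, at -0.03, -0.76 and -0.14 in control and 0.33, 0.25, 0.02 and 0.34 in CLA glands. White adipocyte markers (15 of 17 measured) had scores of 0.55 to 0.95 in control and -0.91 to 0.32 in CLA glands. Lymphocyte markers (17 of 20 measured) included only 5 that passed the dim filter, with a summed signal of 1786 to 2358 in control and 1456 to 2293 in CLA glands. Scores of macrophage, endothelial and fibroblast markers stayed within -0.33 and 0.37 on every array. The part of these cell types in the mitotic values was not tested.

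**Figure D5:**
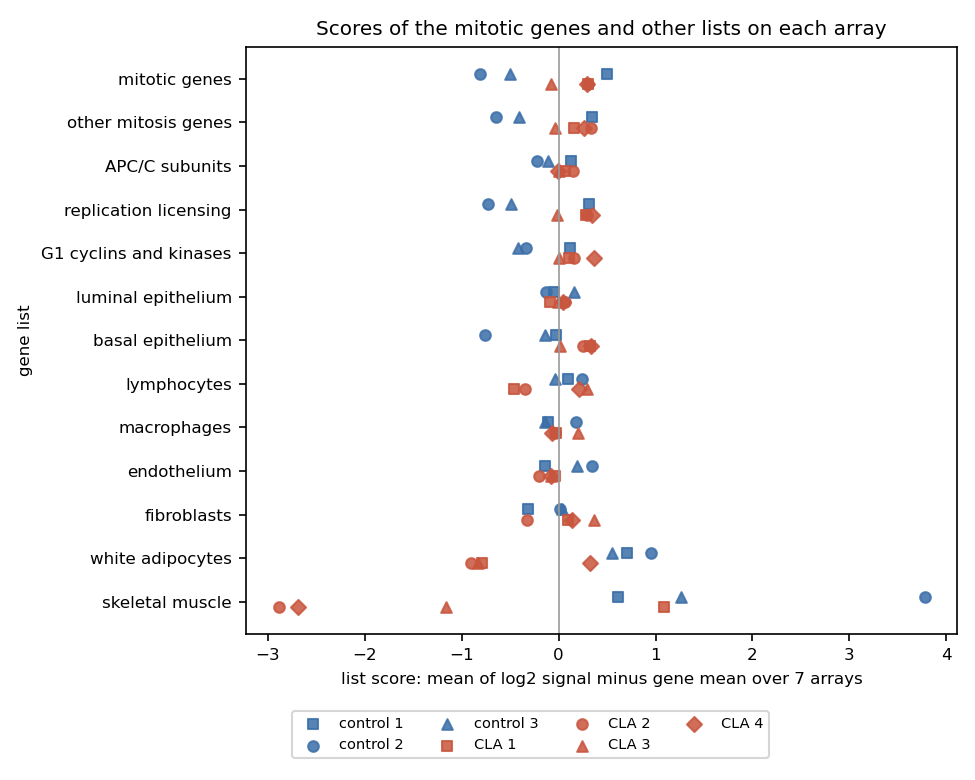
Scores (x axis, mean of log2 signal minus gene mean over 7 arrays) of the mitotic genes and 12 other gene lists (rows) on each array, coloured by diet. Mitotic genes, other mitosis genes and replication licensing genes share their order of controls, with control replicates 2 and 3 low and control replicate 1 high. The anaphase-promoting complex genes, over a smaller range, and the basal markers have the same order of controls. The luminal list stays near 0.

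Of 64 other mitosis genes listed, 61 were tested, 60 had a positive log2 change with a median of 0.41, and 0 passed. At an unadjusted p under 0.05 there were 3 of 61 higher, against 2.38% of all genes, and 0 lower. The genes of smallest p were Incenp, the scaffold of the passenger complex, at 0.54 ± 0.19 (SE), Cdca5, the sororin that guards cohesion, at 0.81 ± 0.32, Shcbp1 at 0.52 ± 0.22 and the centromere gene Cenpw at 0.58 ± 0.26. Incenp was at 1925, 1117 and 1309 in control and 1989, 1929, 1946 and 2359 in CLA glands. The diets did not overlap, as for 2.64% of all genes, but control replicate 1 (1925) was nearly level with CLA replicate 2 (1929). Without control replicate 1 the median of this list was 0.66.

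Subunits and regulators of the anaphase-promoting complex, most of which do not vary much through the cycle, had smaller changes. Of 16 genes tested 12 had a positive log2 change, the median was 0.09 and 0 passed, or had an unadjusted p under 0.05. Fbxo5, the inhibitor Emi1, whose transcript does vary with the cycle, had the smallest p, at 0.64 ± 0.36 (SE), followed by the activator Fzr1 (0.35), Anapc11 (0.26) and Anapc7 (0.18). The list score ranged from -0.23 to 0.15.

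Regulators of the transcription of G2 and M genes, a list of factors, their partners and Cdkn1a, were mixed. Of 23 tested 15 were positive, with a median of 0.13 and 0 passed. The repressor E2f8 was at 0.58 ± 0.22 (SE) and its relative E2f7 at 0.68 ± 0.31. Lin52, a MuvB subunit, was at -1.08 ± 0.42, with signals from 33.2 to 131. Cdkn1a, the cyclin-dependent kinase inhibitor p21, had a log2 change in the other direction. It was at 369, 1245 and 808 in control and 341, 416, 484 and 428 in CLA glands, highest on the controls where the mitotic genes were lowest, with a log2 change of -0.80 ± 0.35 and limma's adjusted p of 0.904.

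Replication licensing genes had a median log2 change of 0.62 with 16 of 17 positive, 9 of 17 higher at an unadjusted limma p under 0.05, against 2.38% of all genes, and 0 passed, and those of smallest p were Mcm7 (0.62 ± 0.17 SE), Mcm6 (0.75), Mcm5 (0.70) and Mcm3 (0.77). G1 cyclins and kinases had a median of 0.35 with 7 of 8 positive and 0 passed, led by the cyclin E gene Ccne1 (1.01 ± 0.31 SE), Cdk4 (0.53), Cdk2 (0.46) and Ccne2 (0.62). With the muscle score as a covariate these medians were 0.17 and 0.16. Whether these lists differed from the mitotic genes was not tested.

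The 33 members had 70 probe sets, and 21 members had more than 1. Of 59 probe sets above the filter 54 had a positive change. The other 5 were further probe sets of Anln, Cenpa, Cenpf, Hmmr and Tpx2, with mean signals from 64.8 to 114. Some probe sets as dim had positive changes, such as 1 of Ttk (mean signal 66.2, log2 change 1.02) and 1 of Cenpf (93.9, 0.92). Below the filter 6 of 11 were positive. The brighter pairs were close, such as Ccna2 at 0.42 and 0.57, Prc1 at 0.45 and 0.36 and Racgap1 at 0.57 and 0.50, while those of Cdca8 ran from 0.33 to 0.74. With the mean of all probe sets of a gene, dim ones included, 11 members moved by over 1.5 times. Smaller changes were then found for Bub1 (0.31), Nek2 (0.064), Cenpa (0.15), Nusap1 (0.20), Anln (0.15), Bub1b (0.32), Cenpe (0.43) and Racgap1 (0.37). Larger changes were found for Kif23 (1.09), Ttk (0.71) and Cdca8 (0.50), so that Kif23 was the largest and Nek2 the smallest, and the median was 0.42.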

How the data were processed

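Total RNA of 7 mammary glands was biotin-labelled and read on 1-colour Affymetrix arrays, per the labels' protocols. The deposited intensity values are linear MAS5 signals, as the submitters' processing notes name them, and share a trimmed mean across arrays. No MAS5 version, genome build or annotation was given in the sources used here. Of 45101 probe sets, 64 were controls, 34945 had 1 gene symbol, 932 several and 9160 none, and those with 1 were used. For 34741 the symbol came through the Entrez identifier from a RefSeq table of GRCm38.p6. Signals under 1 were set to 1 and log2 was taken. The brightest probe set stood for a gene, and genes whose mean was below the 40th percentile of probe sets were not tested. CLA minus control was fitted without covariates with limma 3.58.1 in R 4.3.3 (lmFit, eBayes with trend), two-sided, with Benjamini-Hochberg adjustment over 12497 genes and a threshold of 0.05. The fit was tested on simulated data, where it recovered 45.9% of true 2-fold and 85.3% of true 4-fold changes. The member changes, 1.21 to 1.67-fold, were smaller than those simulated, so 0 calls do not show that they are absent. The number of arrays limits the precision.

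The members and gene lists were chosen with earlier results of these data known, and support nothing by their choice. All members are named, as are the 4 genes of smallest p of each pathway list, the 3 brightest of each cell type list, and the 10 genes most like the score. Only some of the marker genes so named are printed. Promoter windows are RefSeq's. Alternatives were quantile normalization, median centring, pseudocounts of 16 and 64, the mean of probe sets, no filter or a 60th percentile filter, robust eBayes, the title number as a block or 28 alone, Acta1, muscle or luminal covariates, and each array left out. Figures used matplotlib 3.10.9.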

Additional observations from a re-analysis of the deposited data

Results flagged for a closer look

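In the CLA group of 4 arrays the mitotic score of replicate 3, -0.078, stood apart from the other 3, which lay between 0.29 and 0.30, by Dixon's test. The 3′ to 5′ ratio of Actb on that array, 2.78, was the highest of all, and its Acta1 signal, 509, was above those of CLA replicates 2 and 4 and below that of replicate 1. Their part in the score was not tested. Hmmr was flagged in the other direction by its brightest probe set, with a signal of 1411 on CLA replicate 4 against 1106 to 1144 on the other CLA arrays. With the gene's next brightest probe set, at 716, 791, 525 and 878 in CLA glands, replicate 4 was also highest but replicate 3 stood low. Of 35 sets of CLA values examined 2 were flagged, and chance flags about 1 in 20.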

How the results depend on the processing

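No paired analysis was possible because the labels give no replicate numbers that the diets share. Of 660 log2 changes of members under 20 alternatives, 643 kept their direction and stayed short of the threshold, and 17 turned sign without passing it. With the muscle score as a covariate these were Ccna2 (-0.00026), Ccnb2 (-0.26), Aurka (-0.023), Nek2 (-0.064), Melk (-0.093), Cenpa (-0.11), Ndc80 (-0.027), Aurkb (-0.0055), Hmmr (-0.066), Kif20a (-0.13), Racgap1 (-0.24) and Ect2 (-0.19). With log2 Acta1 they were Ccnb2 (-0.10), Melk (-0.025), Racgap1 (-0.086) and Ect2 (-0.070), and without control replicate 2 Kif20a (-0.015; its range with an array left out was -0.015 to 0.93). The cause was not tested. Limma called 0 members under each alternative run, and over all genes 1 within title numbers starting with 28, and from 0 to 17 with an array left out. With an array left out, the median member change ran from 0.18 to 0.84, the score difference from 0.21 to 0.86 and r with Acta1 from -0.75 to -0.32. Median centring gave 622 genes higher and 268 lower at an unadjusted p under 0.05, against 298 and 376, and 8 members against 2.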

Other observations

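The 10 genes outside the members whose signal followed the mitotic score most closely over the 7 arrays had r from 0.987 to 0.998. They were the DNA damage ubiquitin ligase gene Rad18, the mitosis genes Ckap2 and Cdca3, the pocket protein gene Rbl1, the histone methyltransferase gene Nsd2, the licensing inhibitor gene Gmnn, Tgif1, Arhgap11a, Dpy30 and Rrm1, a ribonucleotide reductase subunit. Rad18 was at 314, 85.6 and 120.4 in control and 269, 283, 177 and 259 in CLA glands. Rrm1 was at 3699, 1257 and 1914 in control and 3685, 3451, 2486 and 3432 in CLA glands. These are descriptions of 7 arrays, chosen for their likeness out of 12497 genes.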
